A study of Mus musculus with 6 samples.

Results

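10 genes of TGF-beta and activin signalling were followed in muscle stem cells, the quiescent progenitors of skeletal muscle, with and without deletion of Opa1, the gene of the GTPase that fuses the inner mitochondrial membrane. They were chosen by name, not by their values: the ligand genes Tgfb1, Tgfb2 and Tgfb3, the receptor genes Tgfbr1, Tgfbr2, Tgfbr3 and Acvr2b, and the signal transducer genes Smad2, Smad3 and Smad7. All 10 were present among the 49652 genes counted, and 9 of them passed the filter on low counts that left 18832 genes for testing. Tgfb1 did not pass.

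The cells were sorted from uninjured hindlimb muscle of mice aged 8 to 10 weeks, as cells with integrin alpha-7 and VCAM1 on their surface but without SCA1, CD45 or CD31, and RNA was extracted without culture. All animals were of the OPA1-Pax7-CreERT2 design and had tamoxifen by gavage on 5 days, ending 3 days before the sort. WT animals were Cre negative (n = 3 libraries) and KO animals Cre positive (n = 3 libraries), so Cre and loss of Opa1 cannot be told apart. CreERT2 under Pax7 acts in cells that express Pax7. How many animals went into a library is not given, so p-values measure the spread between these libraries, which may differ from that between animals.

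TGF-beta ligands are secreted in latent form and are released in the matrix. The type II receptor Tgfbr2 then phosphorylates the type I receptor Tgfbr1, which phosphorylates SMAD2 and SMAD3, and these enter the nucleus with SMAD4. Activins and myostatin use Acvr2a and Acvr2b with type I receptors and reach the same SMADs. SMAD7 is induced by the pathway and blocks the type I receptor. In muscle, TGF-beta and myostatin restrain the growth and fusion of myogenic cells.

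Between 41410136 and 56606886 reads per library fell in genes. Opa1 stood at 68.2, 31.4 and 68.8 CPM (counts scaled to library size) in WT and at 17.5, 34.4 and 27.1 CPM in KO, so the library labelled WT replicate 2 lay within the KO range. The log2 fold change of Opa1 was -1.09 (SE 0.37, adjusted p 0.99998 by edgeR's quasi-likelihood test). The stem cell markers were high, with Pax7 at 252 to 453 CPM and Vcam1 at 1032 to 1407 CPM, and the genes of the excluded surface proteins were low but not absent. Pecam1, which encodes CD31, was at 4.36 to 22.5 CPM, Ly6a, which encodes SCA1, at 4.62 to 19.2 CPM, and Ptprc, which encodes CD45, at 0 to 0.651 CPM. Fos, an immediate early gene, was at 7266, 8189 and 7987 CPM in the library labelled WT replicate 2 and KO replicates 2 and 3, against 1365 to 3440 CPM in the other 3 libraries. Mki67, a marker of cycling cells, divided them the other way, at 34.3 to 78.6 CPM in those 3 and 0.652 to 3.18 CPM in the rest. Xist, a transcript of the inactive X chromosome, stood at 355, 0.0209 and 508 CPM in WT and at 401, 393 and 244 CPM in KO. Ddx3y, a transcript of the Y chromosome, stood at 0.0354, 226 and 23.3 CPM in WT and at 0.141, 22.9 and 90.2 CPM in KO. WT replicate 3 and KO replicates 2 and 3 thus held both transcripts. Both also differed within each group, so the libraries differ in ways that the genotype does not explain. Over all 18832 genes edgeR called 0 at an adjusted p under 0.05, with 393 at an unadjusted p under 0.05. DESeq2 called 24.

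The ligand genes differed in level by far more than any of them differed between the genotypes. Compared per length, as CPM per kb of annotated exon, Tgfb3 stood at 49.1 ± 11.0 and Tgfb2 at 30.0 ± 10.6 (SD over the 6 libraries), and Tgfb1 at 0.0178 ± 0.013. Tgfb3 was above Tgfb2 in 6 of 6 libraries, by 1.08 to 2.6 times, although their ranges overlapped. Tgfb1 (chromosome 7, 25687002 to 25705077, plus strand), the ligand gene best known from immune cells and platelets, had 1, 8 and 6 reads in the WT libraries and 3, 1 and 9 reads in the KO libraries. The summed 15 reads in WT correspond to 0.095 CPM (exact Poisson 95% interval 0.0532 to 0.157), and the 13 reads in KO to 0.0878 CPM (0.0467 to 0.150). These intervals cover counting error only. A difference in Tgfb1 was not detectable at this depth. No gene of GENCODE M21 overlaps its exons, but the annotation release that was counted is not given. Whether reads of Tgfb1 were lost in counting was not tested.

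The sequences before the start sites of Tgfb1 and Tgfb2 are shown as a description. Whether they bear on the counted levels was not tested. RefSeq (GRCm38.p6) gave 6 of the 10 genes a promoter entry, among them Tgfb1 and Tgfb2, and the 250 bases before the annotated start are printed 5′ to 3′ on the strand of the gene. Capitals mark exact matches, on either strand, to the GC box GGGCGG and the TATA box TATAAA.
Tgfb1, chr7:25686752-25687001, plus strand: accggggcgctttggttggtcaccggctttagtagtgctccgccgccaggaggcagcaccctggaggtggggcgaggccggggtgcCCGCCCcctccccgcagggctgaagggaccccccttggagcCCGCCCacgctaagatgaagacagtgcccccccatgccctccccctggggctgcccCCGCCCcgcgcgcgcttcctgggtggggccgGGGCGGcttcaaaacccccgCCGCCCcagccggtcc
Tgfb2, chr1:186705990-186706239, minus strand: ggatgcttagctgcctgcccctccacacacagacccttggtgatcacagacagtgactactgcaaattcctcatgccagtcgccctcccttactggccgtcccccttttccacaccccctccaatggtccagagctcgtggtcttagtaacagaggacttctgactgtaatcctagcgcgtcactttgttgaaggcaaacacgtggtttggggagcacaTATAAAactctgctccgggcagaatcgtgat
The Tgfb1 stretch was 75.2% G and C and held 5 GC boxes and 0 TATA boxes. The Tgfb2 stretch was 53.6% G and C, with 0 GC boxes and 1 TATA box whose first base lies 31 bases before the start. Of all 32851 promoter entries, 32.7% held a GC box and 12.4% a TATA box in the same window. GC boxes were also found before Tgfbr1, Acvr2b and Smad3. The cAMP response element TGACGTCA (1.55% of all entries) and the SMAD palindrome GTCTAGAC (0.167%) were found in 0 of the 6. These matches describe the letters of the window and say nothing of which factors bind there.

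**Figure D1:**
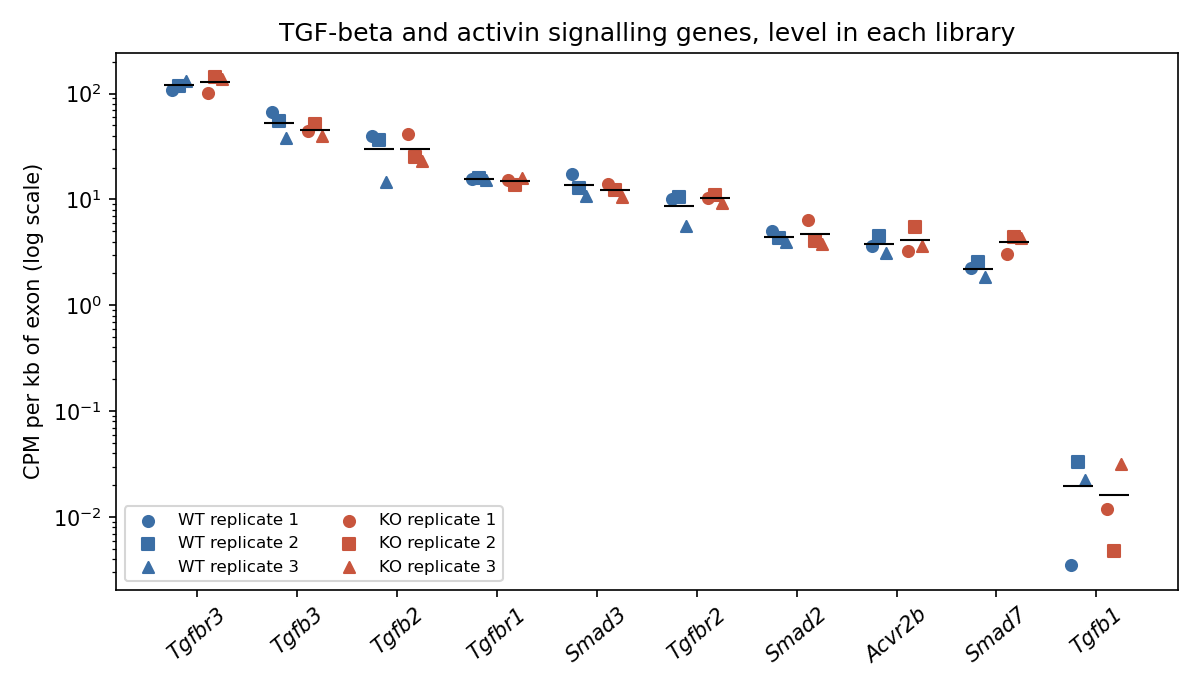
Level of each of the 10 genes in CPM per kb of exon (log axis), ordered by the mean, with 1 point per library (WT blue, KO red) and a line at each group mean. Tgfbr3 was the highest at 102 to 142 and Tgfb1 the lowest, while points of both groups intermingled for all genes except Smad7.

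Tgfb2 (chromosome 1, 186622792 to 186705989, minus strand of GRCm38) ranged more between libraries of a genotype than between genotypes. It stood at 228, 211 and 84.1 CPM in WT and at 238, 147 and 134 CPM in KO, so WT replicate 3 was the lowest and the groups overlapped. Group means were 174 ± 78.7 and 173 ± 57.0 CPM (SD, n = 3 each), with a log2 fold change of -0.01 (SE 0.40, 95% interval -0.95 to 0.93). Tgfb2 is a TGF-beta isoform made by many mesenchymal and epithelial cells, and its interval still allows changes of nearly 1 log2 unit in either direction.

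Tgfb3 (chromosome 12, 86056745 to 86079041, minus strand), the remaining isoform, had overlapping groups. Its level was 227, 185 and 128 CPM in WT against 150, 173 and 134 CPM in KO. The means were 180 ± 50.1 and 152 ± 19.6 CPM (SD, n = 3 each), with a log2 fold change of -0.24 (SE 0.23, 95% interval -0.77 to 0.29). Without WT replicate 3, again the lowest library, it was -0.44, with an unadjusted p of 0.0476 and an adjusted p of 0.99995 by edgeR, and without WT replicate 1 it was -0.03.

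Among the receptors, the co-receptor gene Tgfbr3 (chromosome 5, 107106570 to 107289629, minus strand) was expressed most. Its product, betaglycan, presents TGF-beta ligands to the signalling receptors and binds inhibin. At 123 ± 16.5 CPM per kb it exceeded Tgfbr1 by 6.66 to 10.4 times and Tgfbr2 by 9.79 to 23.4 times, library by library, and its level lay at percentile 99.3 of the 18832 genes by mean log2 CPM. The single values were 709, 763 and 865 CPM in WT against 668, 929 and 901 CPM in KO. KO replicate 1 was thus the lowest library and KO replicates 2 and 3 the highest. Its log2 fold change came to 0.10 (SE 0.17, 95% interval -0.31 to 0.50), and -0.003 without KO replicate 2.

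Tgfbr1 (chromosome 4, 47353222 to 47414931, plus strand), the type I receptor that phosphorylates SMAD2 and SMAD3, was the steadiest of the 10 genes. It stood at 101, 104 and 99.7 CPM in WT and at 100, 89.4 and 104 CPM in KO, a ratio of 1.16 between the highest and the lowest library. The means were 102 ± 1.95 and 97.7 ± 7.46 CPM (SD, n = 3 each), with a log2 fold change of -0.06 (SE 0.12, 95% interval -0.34 to 0.23). The interval corresponds to a KO level between 0.791 and 1.17 times that of WT.

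Tgfbr2 (chromosome 9, 116084293 to 116175360, minus strand), the type II receptor that binds the ligand first, stood at 81.9, 86.0 and 46.2 CPM in WT and at 85.3, 90.3 and 75.7 CPM in KO. The other 5 libraries lay close together, above WT replicate 3. The log2 fold change of 0.23 (SE 0.24, 95% interval -0.35 to 0.81) became -0.004 without WT replicate 3. Acvr2b (chromosome 9, 119402118 to 119434995, plus strand), the type II receptor for activins and myostatin, stood at 14.3, 17.9 and 12.3 CPM in WT and at 12.9, 21.7 and 14.2 CPM in KO. KO replicate 2 was its highest library, and the log2 fold change of 0.13 (SE 0.28, 95% interval -0.54 to 0.80) became -0.15 without it.

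WT replicate 3 was the lowest library for 5 of the 10 genes, namely Tgfb2, Tgfb3, Tgfbr2, Acvr2b and Smad7. In bulk RNA, fewer cells of a type and less RNA per cell cannot be told apart. The same library was the lowest for 6 of 8 endothelial markers, 6 of 6 Schwann cell markers, 5 of 8 mature fibre markers and 12 of 12 immediate early genes, and for 0 to 3 markers of each other list. The summed level of the endothelial list was 106 to 169 CPM in WT and 97.1 to 162 CPM in KO. Most of it came from Tek, which was lowest in KO replicate 1. Averaged over the endothelial list, log2 CPM came to 3.27, 3.46 and 0.18 in WT and to 1.76, 2.67 and 3.35 in KO. The Schwann cell list summed to 38.7 to 188 CPM in WT and 93.6 to 164 CPM in KO. The mature fibre list summed to 148 to 546 CPM in WT and 165 to 407 CPM in KO. No marker of these 3 lists was at 0 in any library. Their part in the low values was not tested.

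SMAD3 and SMAD2 carry the signal from the type I receptors to the nucleus. Per length, Smad3 exceeded Smad2 by 2.2 to 3.45 times in every library. Smad3 stood at 96.8, 70.4 and 59.4 CPM in WT and at 77.2, 68.2 and 58.6 CPM in KO. Its log2 fold change came to -0.15 (SE 0.21, 95% interval -0.66 to 0.35), and 0.07 without WT replicate 1, its highest library. Smad2 stood at 44.5, 37.9 and 34.4 CPM in WT and at 55.5, 35.5 and 33.5 CPM in KO. KO replicate 1 was the highest of the 6, and the log2 fold change of 0.09 (SE 0.24, 95% interval -0.47 to 0.65) became -0.17 without it.

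The order of mean levels per length ran from Tgfbr3 through Tgfb3, Tgfb2, Tgfbr1, Smad3, Tgfbr2, Smad2, Acvr2b and Smad7 to Tgfb1. Neighbours whose ranges over the 6 libraries did not overlap were Tgfbr3 and Tgfb3 at the top and Smad7 and Tgfb1 at the bottom, and the other neighbours overlapped. Acvr2b (3.96 ± 0.918 CPM per kb) and Smad2 (4.58 ± 0.964 CPM per kb) changed places in 2 of the 6 libraries.

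Smad7 (chromosome 18, 75367529 to 75395935, plus strand) was the only gene of the 10 whose KO libraries all lay above its WT libraries. It stood at 10.2, 11.5 and 8.32 CPM in WT (577, 552 and 445 reads) and at 13.7, 20.1 and 19.6 CPM in KO (681, 833 and 1112 reads). KO replicates 2 and 3 were nearly alike, and KO replicate 1 was the KO library nearest to WT. The means were 10.0 ± 1.61 and 17.8 ± 3.57 CPM (SD, n = 3 each), or 178% of the WT mean in KO. KO exceeded WT by 0.83 on the log2 scale (SE 0.26, 95% interval 0.22 to 1.44).

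That difference did not pass when adjusted over all genes. The quasi-likelihood test of edgeR gave an unadjusted p of 0.0147 and an adjusted p of 0.99998, and DESeq2 an adjusted p of 0.718. Groups of libraries that do not overlap were seen for 6.55% of all 18832 genes, and for 1 of the 9 tested genes here. An unadjusted p under 0.05 was found for 2.09% of all genes and for 1 of the 9. With a library left out the log2 fold change of Smad7 stayed between 0.71 and 0.99. Its unadjusted p was 0.0603 without KO replicate 2 and 0.0515 without KO replicate 3.

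Of the 12 listed immediate early genes, edgeR called 0, against 0% of all genes. An unadjusted p under 0.05 by edgeR was found for 0 of them, against 2.09% of all genes. Groups that did not overlap were seen for 0, against 6.55% of all genes. Their log2 fold changes were positive for 12 of 12 (median 0.70, against 0.01 over all genes). Averaged over the list, log2 CPM came to 8.69, 9.95 and 7.22 in the WT libraries and to 8.52, 10.2 and 10.0 in the KO libraries. Within each genotype the libraries stood in the same order by this mean and by Smad7, from high to low replicates 2, 1 and 3 in WT and replicates 2, 3 and 1 in KO. Across genotypes the orders differed, since KO replicate 1 lay below WT replicates 1 and 2 by this mean and above them by Smad7. The part of the immediate early genes in the Smad7 values was not tested. With the share of reads without a feature as a covariate, which also varied between libraries (11.15% to 17.02%), the log2 fold change of Smad7 was 0.77.

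**Figure D2:**
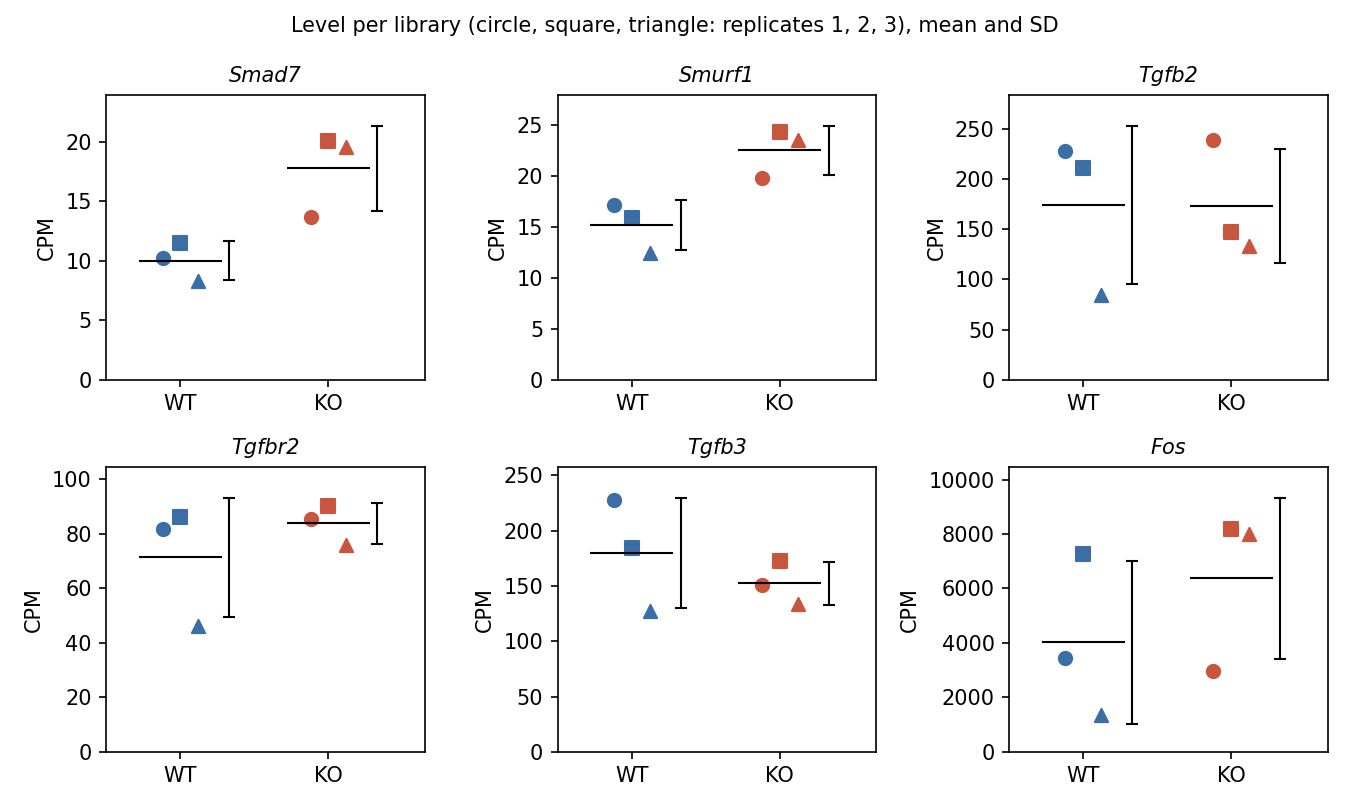
CPM of Smad7, Smurf1, Tgfb2, Tgfbr2, Tgfb3 and Fos in each library (WT blue, KO red; circle, square and triangle for replicates 1, 2 and 3), with the group mean as a line and the SD as a bar (n = 3 each). Smad7 and Smurf1 were higher in every KO library, Tgfb2 and Tgfbr2 had their lowest value in WT replicate 3, and Fos divided the libraries across genotype.

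Over the 9 tested genes, edgeR called 0 at an adjusted p under 0.05, against 0% of all genes. Log2 fold changes were positive for 5 and negative for 4, against 51% positive over all genes, with a median of 0.09 against 0.01. The 95% intervals of 8 genes held 0, and 6 of the 9 fold changes lay within the range of the middle 50% of all genes, -0.18 to 0.23. Intervals were narrowest for Tgfbr1 and widest for Tgfb2, so a small change is bounded more tightly for the receptor than for the ligand.

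**Figure D3:**
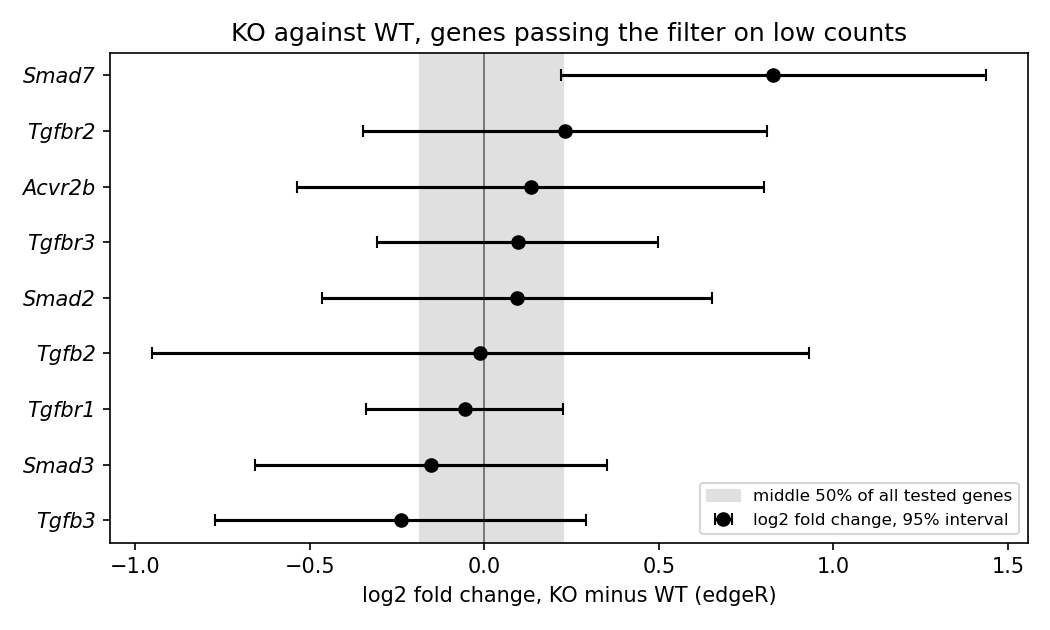
Log2 fold change of KO minus WT by edgeR with its 95% interval for the 9 genes that passed the filter on low counts; the grey band holds the middle 50% of all tested genes (-0.18 to 0.23). Only the interval of Smad7 (0.22 to 1.44, before adjustment over all genes) lies to the right of 0.

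The genes whose log2 CPM followed Smad7 most closely over the 6 libraries, among 12571 genes compared, were Spry2, a feedback inhibitor of receptor tyrosine kinase signalling (Pearson r 0.994), Gm38228 (0.992) and Ptprj, a receptor-type phosphatase (0.991). For Tgfb3 they were Gm16759, Primpol and Socs1 (0.980 to 0.984), and for Tgfbr2 Acot6, 4930429H19Rik and Por (0.985 to 0.995). With 6 libraries and so many genes compared, these values are given as a description only, and no p is given.

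The ligands and antagonists of the activin and myostatin branch were mostly low. All 10 of these genes passed the filter, 0 were called in either direction, and 4 had positive and 6 negative log2 fold changes (median -0.07). Inhbb, the activin B subunit, was the main activin transcript at 20.0, 48.3 and 30.6 CPM in WT against 12.5, 40.8 and 39.2 CPM in KO. Inhba, the activin A subunit, was at most 0.835 CPM in WT and 1.01 to 1.30 CPM in KO, and Inha, the inhibin alpha subunit, stood at 2.10 to 3.30 CPM in WT and 0.562 to 2.04 CPM in KO. For these 2 of the 10 the groups did not overlap, against 6.55% of all genes, with log2 fold changes of 1.11 (SE 0.92) and -1.01 (SE 0.57). Inhba came to 0.58 without WT replicate 3 and 1.79 by limma voom, and Inha to -0.63 without KO replicate 1.

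Mstn, which encodes the muscle growth inhibitor myostatin, did not exceed 2.09 CPM in any library. Its relative Gdf11 stood at 6.68 to 16.7 CPM in WT and 14.0 to 17.0 CPM in KO. Fst, the activin-binding follistatin, was at 8.64 CPM in WT replicate 3 and at most 2.07 CPM elsewhere, and its log2 fold change of -1.65 (SE 1.33) became 0.03 without that library. Fstl1, a secreted follistatin-like glycoprotein, was the most abundant of the list at 504 to 722 CPM in WT and 487 to 783 CPM in KO. Fstl3, Wfikkn1 and Wfikkn2, further secreted antagonists, stayed under 4 CPM, with log2 fold changes of 0.09, 0.02 and -0.10.

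Of the other receptors and SMADs of the branch, 9 of 10 passed the filter and 0 were called in either direction, with 5 positive and 4 negative (median 0.02). Acvr2a, the second activin type II receptor gene, stood at 14.2 CPM per kb on average, above Acvr2b at 3.96 CPM per kb, with a log2 fold change of 0.02 (SE 0.24). Smad4, the partner of SMAD2 and SMAD3, had 0.12 (SE 0.21), and Acvr1b, the activin type I receptor, -0.13 (SE 0.47). Bambi, a decoy type I receptor, had 0.33 (SE 0.33), with 0.14 without WT replicate 1 and 0.71 without WT replicate 2. Acvr1c, Vasn and Tgfbr3l were below 6 CPM in every library, with 0.97, -2.12 and -0.59. Acvr1c had 0 reads in WT replicate 2 and ranged from 0.39 without that library to 2.86 without WT replicate 1. Vasn came to -1.38 by limma voom, and Tgfbr3l to -0.24 without KO replicate 1. The endosomal adaptors Zfyve9 and Zfyve16 had 0.03 and -0.10. Tdgf1, a Nodal co-receptor, was at or near 0 and was not tested.

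Latency and activation genes showed 9 positive and 8 negative log2 fold changes among 17 of 18 tested genes (median 0.01), with 0 called in either direction. Thbs1, whose product can activate latent TGF-beta, stood at 31.6, 21.2 and 7.85 CPM in WT and at 11.8, 9.60 and 6.41 CPM in KO (log2 fold change -1.12, SE 0.51, and -0.65 without WT replicate 1). Ltbp4, a latent TGF-beta binding protein, had 0.38 (SE 0.25, and 0.13 without KO replicate 2), the matrix fibrillin Fbn1 -0.37 (SE 0.21, and -0.63 without KO replicate 1), the ligand protease Furin 0.24 (SE 0.18, and 0.10 without KO replicate 2) and the integrin subunit Itgb1 0.08 (SE 0.17).

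Among intracellular brakes and cofactors, 15 of 16 were tested, 9 positive and 6 negative (median 0.03), with 0 called in either direction. Smurf1, a ubiquitin ligase that SMAD7 brings to the type I receptor, was the only 1 of the 15 whose groups did not overlap, a share near the 6.55% of all genes. It stood at 17.1, 15.9 and 12.5 CPM in WT and at 19.8, 24.3 and 23.5 CPM in KO, with a log2 fold change of 0.57 (SE 0.21, unadjusted p 0.0304, adjusted p 0.99998 by edgeR). Its close relative Smurf2 had 0.09 (SE 0.32), and -0.18 without WT replicate 1. Tob1, an antiproliferative SMAD cofactor, had 0.50 (SE 0.23). Pmepa1, a feedback inhibitor induced by TGF-beta, had -0.72 (SE 0.42), and -0.12 without WT replicate 3, where it was highest. Nedd4l and Strap, the most abundant of the list, had 0.13 and -0.04, and the deubiquitinase Usp15 0.14.

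Genes that TGF-beta induces in many cell types had mixed signs. Of 22 listed, 21 were tested, 13 positive and 8 negative (median 0.16), with 0 called in either direction by edgeR. An unadjusted p under 0.05 by edgeR was found for 4 of the 21, against 2.09% of all genes. Groups did not overlap for 2 of the 21, against 6.55% of all genes. The list was fixed with earlier results of these data known. Their fold changes spread from -1.89 to 1.60. At the upper end stood Snai1, a repressor of epithelial genes, at 2.86, 2.67 and 1.85 CPM in WT against 8.27, 7.62 and 6.57 CPM in KO. At the lower end stood Postn, which encodes the matrix protein periostin, at 4.67, 8.83 and 8.27 CPM in WT against 2.11, 2.6 and 1.18 CPM in KO. DESeq2 called these 2 genes, at adjusted p 0.00312 and 0.0437, and 0.0785% of the 30583 genes to which it gave an adjusted p. Neither passed edgeR's adjusted threshold.

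Col3a1, a fibrillar collagen chain, stood at -0.69 on the log2 scale (SE 0.25) and Tgfbi, a secreted matrix protein named for its induction by TGF-beta, -0.99 (SE 0.41). Junb and Ccn1, both also immediate early genes and the most abundant of the list, had 0.98 (SE 0.73, and 0.51 without WT replicate 3) and 0.33 (SE 0.47, and -0.09 without WT replicate 3).

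**Figure D4:**
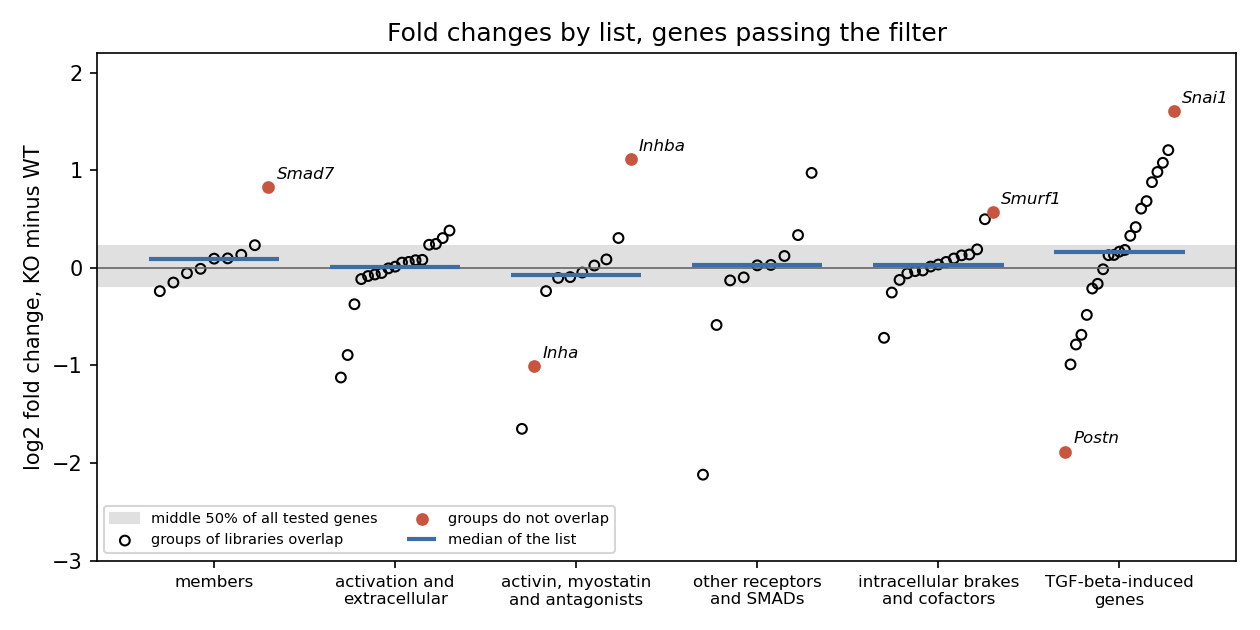
Log2 fold change (KO minus WT, edgeR) of every tested gene in the 10-gene set and in the 5 wider lists, with the list median as a blue line; red points are genes whose 3 KO libraries all lay on 1 side of the 3 WT libraries. List medians lay between -0.07 and 0.16, within the grey band of the middle 50% of all tested genes.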

How the data were processed

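The authors deposited raw, whole-number counts of reads for each gene and library. The submitters' processing notes name the build GRCm38 and, as tools, HTSeq 0.6.1p2, STAR 2.6.0c, cutadapt 2.5 and Trim Galore 0.5.0. Which annotation release was counted, and with which strand setting, is not given in the sources used. In GENCODE M21, noncoding genes share 124 to 297 bases of the exons of Tgfb2, Tgfb3 and Tgfbr3. Those of Tgfb2 and Tgfb3 lie on the opposite strand and that of Tgfbr3 on the same strand. How reads on the shared bases were counted is not known. Reads set aside as ambiguous were 1.21% to 1.42% of all reads. The 5 summary rows of each file were left out. The share of all reads counted as without a feature was 11.15% to 17.02%.

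Symbols, positions and exon lengths were taken from GENCODE M21 (GRCm38) by gene ID, which matched 49399 of 49652 rows. KO was compared with WT in R 4.3.3 by the quasi-likelihood test of edgeR 4.0.16 (robust, TMM scaling, filter on low counts, no covariate), adjusted by Benjamini-Hochberg over 18832 genes. Fold changes have a prior count of 0.125, and standard errors were derived from the fold change and the F statistic. CPM are after TMM scaling. DESeq2 1.42.0, limma 3.58.1 (voom) and other scalings, filters, covariates and sets of libraries were alternatives. Scripts were tested on simulated data. The 9 tested genes had at least 445 reads in every library, so the spread between libraries limits their precision, and counting error that of Tgfb1.

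The genes, lists and tests were chosen with earlier results of these data known. Named are the 10 genes, Opa1 and all tested genes of the activin and receptor lists. Of the other lists of signalling genes, the 4 genes with the smallest p and the 2 most abundant are named. The 3 genes most like each of the 3 members with the smallest p are also named. Mki67, Fos, Xist and Ddx3y are named as genes that separate libraries, and Tek as the most abundant endothelial marker. The 2 most abundant genes of each marker list, though planned, are not all named. Smurf2, Tdgf1, Pax7, Vcam1, Pecam1, Ly6a and Ptprc were named after their values were seen. Of the endothelial, fibro-adipogenic, leukocyte, smooth muscle and pericyte, tenocyte, Schwann cell, mature fibre and erythroid lists, edgeR called 0 members. It called 0% of all genes, so these counts say nothing of cell composition.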

Additional observations from a re-analysis of the deposited data

How the results depend on the processing

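By edgeR and limma voom 0 of all genes and 0 of the 10 genes were called under every alternative run, and DESeq2 called 24 of all genes and 0 of the 10. At an unadjusted p under 0.05, edgeR gave 324 to 818 of all genes with a library left out, 629 with the share of reads without a feature as a covariate and 864 without the filter, against 393. Tgfb3, Tgfbr1 and Smad7 kept their sign under every alternative, Smad7 with an adjusted p of 0.718 to 1. With a library left out, log2 fold changes that changed sign ranged over -0.34 to 0.23 for Tgfb2, -0.0045 to 0.39 for Tgfbr2, -0.0032 to 0.23 for Tgfbr3, -0.15 to 0.29 for Acvr2b, -0.17 to 0.22 for Smad2 and -0.30 to 0.0677 for Smad3. Among the other named genes they ranged over -3.01 to 0.29 for Mstn, -0.29 to 0.0761 for Fstl1, -0.55 to 0.46 for Wfikkn1, -0.38 to 0.22 for Acvr1b, -0.14 to 0.33 for Acvr2a, -0.0224 to 0.27 for Smad4, -0.27 to 0.0801 for Strap, -0.0682 to 0.18 for Itgb1, -0.36 to 0.28 for Inhbb, -0.29 to 0.61 for Fstl3, -0.61 to 1.15 for Wfikkn2, -2.29 to 0.0333 for Fst, -0.0857 to 0.18 for Zfyve9, -0.18 to 0.32 for Smurf2 and -0.0854 to 0.72 for Ccn1. Values that kept their sign but moved by over 1.5 times, and are not given with the results, ranged over -0.10 to -0.0108 for Tgfbr1, 0.31 to 0.78 for Tob1, 0.0024 to 0.30 for Nedd4l, 0.0421 to 0.20 for Usp15, -0.19 to -0.0284 for Zfyve16, 0.51 to 1.63 for Junb and 0.0095 to 0.59 for Gdf11.

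The replicate numbers pair no libraries by the labels, and deviations from the group means correlated between same-numbered libraries at 0.195, 0.082 and -0.072 over genes. With the replicate number as a block 0 genes were called by edgeR and 515 had an unadjusted p under 0.05, and the log2 fold change was 0.82 for Smad7. Signs turned with the block for Tgfb2 (0.0702), Wfikkn1 (-0.27) and Wfikkn2 (0.24), and with limma voom for Tgfb2 (0.0712), Wfikkn1 (-0.35) and Wfikkn2 (0.48). With the share of reads without a feature as a covariate they turned for Tgfb2 (0.0219), Fstl1 (0.0077), Zfyve9 (-0.0166), Wfikkn1 (-0.0897) and Wfikkn2 (0.14). Wfikkn1 also turned with upper quartile scaling (-0.0179) and without the filter (-0.0030). The cause of these changes was not tested.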
